A study of Homo sapiens with 2 samples.

Results

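The proteasome genes were examined in WT and PERK-KO HEK293 cells, a human embryonic kidney line. They were chosen by symbol, as every row whose gene name begins with PSMA, PSMB, PSMC, PSMD, PSME, PSMF or PSMG and a digit, leaving out antisense rows and pseudogenes. This gave 49 of the 23972 rows on the main chromosomes. PSMC3IP, a meiotic recombination factor, was caught by its name and belongs to no proteasome class. The other 48 genes were 19 of the 20S core, 17 of the 19S cap, 4 activators with 1 regulator, and 7 assembly chaperones.

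Both samples spent 12 h in OXPHOS medium, which is free of glucose and supplies galactose and pyruvate. EIF2AK3, which encodes the ER-resident kinase PERK, was unedited in WT cells and had been targeted by CRISPR/Cas9 in PERK-KO cells, which were grown out from single cells. Which clone was sequenced is not stated, and an effect of PERK loss cannot be told apart from other differences between a clone and the parental line. Poly(A) RNA was sequenced from 1 sample of each genotype, so no difference has a replicate check and no p-value is given.

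The proteasome degrades proteins tagged with ubiquitin. Its 20S core is a barrel of stacked rings, with alpha subunits at the outer gates and beta subunits, which carry the proteolytic sites, lining the chamber. The 19S cap binds ubiquitin chains, removes them and feeds the unfolded substrate into the core with a ring of ATPases. The PSME activators are other caps that need no ATP, and assembly chaperones guide the building of the particle and then leave it. Misfolded proteins of the ER are drawn into the cytosol and degraded by this machine.

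Expression is in FPKM, fragments scaled by exon length and library total, so levels can be set side by side between genes. Each value is given as WT against PERK-KO with its deposited confidence limits in square brackets. These limits cover the counting error of 1 library only. The log2 ratio is that of PERK-KO over WT, without a pseudocount. EIF2AK3 stood at 5.61 [5.11, 6.12] against 3.89 [3.44, 4.34], which does not report on the protein. Among 8 HEK293 markers, VIM, KRT8, KRT18 and NEFL ranged from 33.4 to 640.5 FPKM over both samples, NES and LHX1 from 2.88 to 5.03, and PAX2 was below 1. NEFM, the remaining one, stood at 0.662 [0.446, 0.877] against 5.21 [4.54, 5.87]. Of 6 markers of other cells, CD3E and UCP1 were listed at 0, PTPRC and DCN reached at most 0.180, and ADIPOQ and COL1A1 ranged from 1.42 to 4.97.

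Most proteasome genes were modestly lower in the PERK-KO sample. With a floor of 1 FPKM in either sample, 45 of the 48 genes counted as expressed, of which 37 were lower (background 46.4%) and 8 higher. Intervals were apart for 32 of the lower genes, or 71.1%, where 18.7% of all 14594 expressed genes were lower in this way. They were apart for 4 higher genes, PSMD3, PSMD5, PSME4 and PSMF1, where the background was 26.1%. The median log2 ratio was -0.26, beside 0.04 for all expressed genes. Beyond 1.5-fold there were 6 lower genes, or 13.3%, against a background of 7.54%. These were PSME1, PSMG3, PSMA2, PSMA7, PSMD1 and PSME2. PSMD5 alone was higher beyond this limit (background 10.1%). All 7 also had separate intervals, which 5.39% of expressed genes had among those lower and 7.9% among those higher. None of the 45 reached 2-fold.

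**Figure D1:**
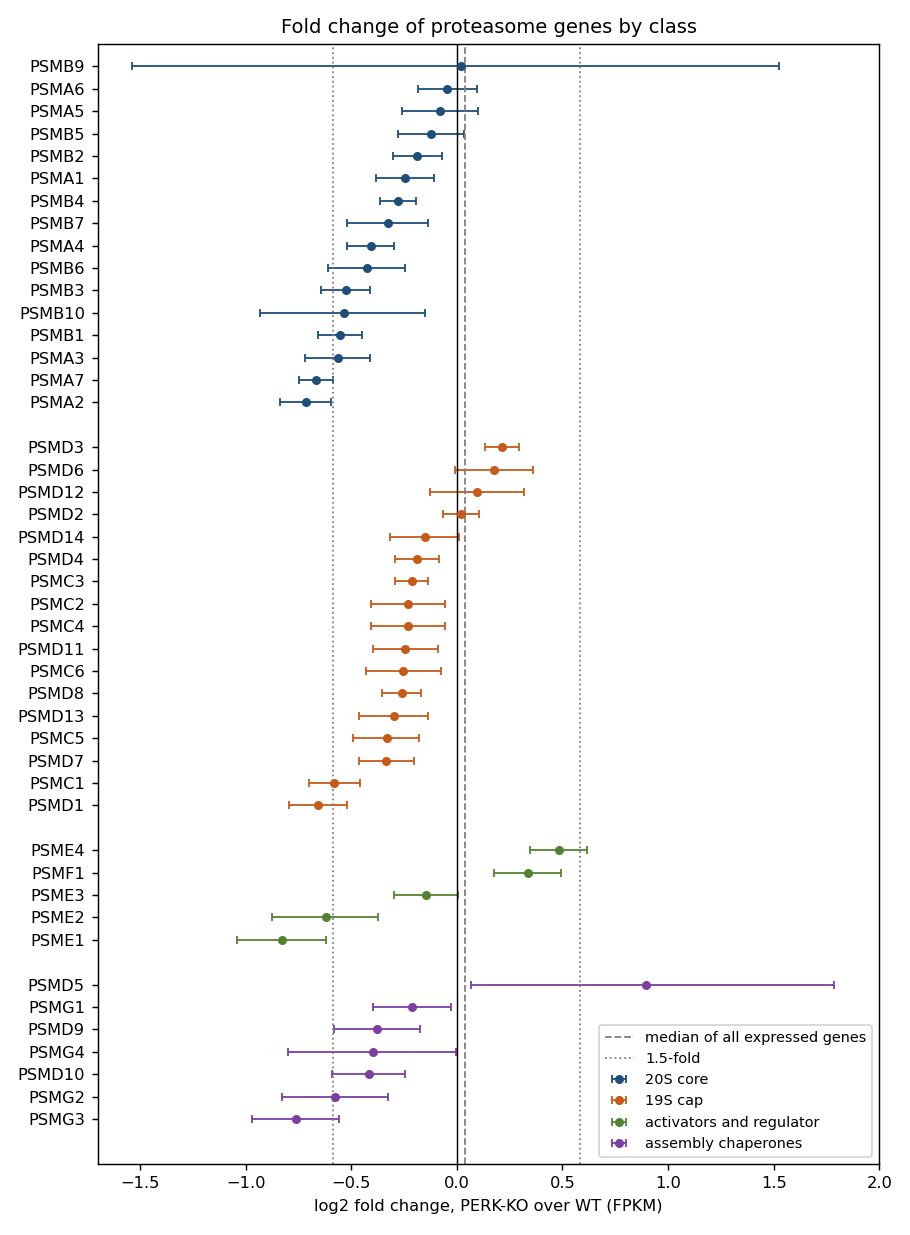
Log2 ratio of FPKM, PERK-KO over WT, for the 45 expressed proteasome genes by class, 1 sample per genotype. Bars span the ratios that the deposited limits allow, dotted lines mark 1.5-fold and the dashed line is the median of all expressed genes (0.04); 37 of the 45 points lie below 0.

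Transcript length and level moved with these shares, so they were also taken within strata of both. At 10 FPKM or more in either sample, 32 of 43 proteasome genes (74.4%) were lower with separate intervals against 28.9% of 7709 genes, 3 were higher with separate intervals against 29.7%, and 6 were lower beyond 1.5-fold against 7.63%. Among genes of this level whose canonical transcript is under 1500 bases, the first count was 18 of 21 (85.7%) against 65.8% of 1425 genes, 0 were higher against 4.42%, and 5 passed 1.5-fold against 21.3%. Among the longer transcripts it was 14 of 22 (63.6%) against 21.1% of 5863 genes, 3 were higher against 37.6%, and 1, PSMD1, passed 1.5-fold against 2.73%. Most short genes of the whole table were lower, and the short proteasome genes past 1.5-fold, PSME1, PSMG3, PSMA2, PSMA7 and PSME2, made up a share near that background.

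Promoters of 6 genes are shown, 4 that were lower beyond 1.5-fold and 2 that were higher with separate intervals, so that their start regions can be compared. RefSeq (GRCh38.p14) held a 300-base window, 250 bases before to 50 bases after the start, for 42 of the 48 genes, without PSMA7, PSMB1, PSMB6, PSMB7, PSMD4 and PSMG3. Capitals mark the antioxidant response element TGACNNNGC, to which NFE2L1 and NFE2L2 bind, the ETS core CCGGAAG and the CCAAT box CCAAT, on either strand.
PSME1, chr14:24135944-24136243, plus strand: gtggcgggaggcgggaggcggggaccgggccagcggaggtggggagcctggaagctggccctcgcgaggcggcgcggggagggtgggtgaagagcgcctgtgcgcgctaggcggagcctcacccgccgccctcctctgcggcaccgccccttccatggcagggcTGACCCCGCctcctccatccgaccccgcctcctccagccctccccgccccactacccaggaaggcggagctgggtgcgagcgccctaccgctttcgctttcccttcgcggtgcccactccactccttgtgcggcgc
PSME2, chr14:24146561-24146860, minus strand: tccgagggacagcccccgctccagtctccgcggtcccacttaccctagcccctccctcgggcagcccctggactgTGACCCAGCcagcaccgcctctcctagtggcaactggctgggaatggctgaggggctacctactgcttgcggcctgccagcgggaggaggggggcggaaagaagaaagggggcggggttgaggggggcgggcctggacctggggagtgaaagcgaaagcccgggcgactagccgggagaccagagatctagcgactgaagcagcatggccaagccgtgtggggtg
PSMA2, chr7:42932125-42932424, minus strand: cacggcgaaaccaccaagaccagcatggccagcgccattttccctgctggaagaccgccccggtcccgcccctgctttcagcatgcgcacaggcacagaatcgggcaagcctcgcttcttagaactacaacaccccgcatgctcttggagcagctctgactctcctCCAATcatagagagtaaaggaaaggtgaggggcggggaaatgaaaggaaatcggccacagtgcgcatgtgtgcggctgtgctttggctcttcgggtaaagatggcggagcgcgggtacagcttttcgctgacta
PSMD1, chr2:231056617-231056916, plus strand: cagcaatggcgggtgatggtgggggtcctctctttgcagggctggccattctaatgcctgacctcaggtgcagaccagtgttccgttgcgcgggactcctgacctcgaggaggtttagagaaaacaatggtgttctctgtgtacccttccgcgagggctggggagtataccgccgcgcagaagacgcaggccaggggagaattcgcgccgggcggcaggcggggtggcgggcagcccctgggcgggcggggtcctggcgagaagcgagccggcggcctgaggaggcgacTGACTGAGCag
PSME4, chr2:53970944-53971243, minus strand: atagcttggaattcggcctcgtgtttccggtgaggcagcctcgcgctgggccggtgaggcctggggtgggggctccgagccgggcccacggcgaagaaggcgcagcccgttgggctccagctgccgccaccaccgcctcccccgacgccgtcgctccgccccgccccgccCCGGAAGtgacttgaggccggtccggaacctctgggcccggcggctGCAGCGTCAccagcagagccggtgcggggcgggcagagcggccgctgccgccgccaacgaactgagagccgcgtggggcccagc
PSMD3, chr17:39980557-39980856, plus strand: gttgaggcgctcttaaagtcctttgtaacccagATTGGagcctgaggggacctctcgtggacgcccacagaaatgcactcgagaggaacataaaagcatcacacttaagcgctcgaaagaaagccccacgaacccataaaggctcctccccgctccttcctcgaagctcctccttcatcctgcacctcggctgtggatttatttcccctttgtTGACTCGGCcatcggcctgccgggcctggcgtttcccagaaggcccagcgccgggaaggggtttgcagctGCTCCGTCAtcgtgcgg

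The antioxidant response element began 86 bases before the start of PSME1, 175 before that of PSME2 and at base 40 of the PSMD1 transcript. Of the 4 genes higher with separate intervals, PSMD3, PSMD5 and PSME4 held it and PSMF1 did not. In PSME4 it lay on the opposite strand 34 bases before the start, and in PSMD3 it lay 37 bases before the start and, on the opposite strand, at base 34 of the transcript. PSMA2 held a CCAAT box 84 bases before its start, PSMD3 held one on the opposite strand at 217, and PSME4 held an ETS core at 80. Over all 42 genes the antioxidant response element was found in 15 (35.7%), against 16.1% of 27305 genes with such windows, the ETS core in 15 (35.7%) against 12.2%, and CCAAT in 20 (47.6%) against 39.7%. Unlike the backgrounds above, the 27305 were not limited to expressed genes, so the 2 sets are not alike. The ETS core was found in 9 of 16 cap genes and 2 of 15 core genes. The median log2 ratio was -0.33 for 15 genes with the antioxidant response element and -0.24 for 25 without. It was -0.24 for 14 with the ETS core and -0.25 for 26 without. These sets took every gene with a window and an FPKM above 0, so both sets without a motif include PSMB8, which was below 1 FPKM. A match describes letters in a window and is neither a bound site nor a cause.

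In the alpha ring all 7 expressed genes had lower values in PERK-KO cells (background 46.4%), with a median log2 ratio of -0.41. Intervals were apart for 5 of them (71.4%), where the background was 18.7%, or 44.2% among expressed genes under 1500 bases. PSMA2, on chromosome 7 (42956462 to 42971805) of GRCh37 like all loci below, stood at 124 [120.0, 129] against 75.8 [72.1, 79.5], a log2 ratio of -0.72. PSMA7, on chromosome 20 (60711783 to 60718514) and the highest proteasome gene in WT cells, stood at 411 [400.5, 421] against 259 [250.3, 267], a log2 ratio of -0.67. For both, the WT value was higher and the intervals were far apart. PSMA6 stood at 112 [107, 118] against 109 [104, 115] and PSMA5 at 27.1 [25.4, 28.7] against 25.6 [24.0, 27.3], and a difference was not detectable at this depth. PSMA1, PSMA3 and PSMA4 were lower with separate intervals, at -0.25, -0.56 and -0.41. PSMA8, the testis counterpart of PSMA7, was listed at 0. Although the ring takes up every alpha subunit equally, WT levels ran from 27.1 to 411 FPKM.

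In the constitutive beta ring all 7 genes were lower, 6 with separate intervals (85.7%) and none beyond 1.5-fold, with a median of -0.33. Of all expressed genes under 1500 bases, 44.2% were lower with separate intervals and 21.0% were lower beyond 1.5-fold. Less the running median over length, the median of this ring was -0.05, with 5 of the 7 genes below 0. With the transcript nearest to the deposited locus it was -0.11. The 3 proteolytic subunits had log2 ratios from -0.43 to -0.12. PSMB5, the chymotrypsin-like subunit that bortezomib blocks, stood at 132 [125, 139] against 121 [115, 128], with overlapping intervals. PSMB6, the caspase-like subunit, stood at 173 [162, 183] against 128 [119.9, 137], and PSMB7, the trypsin-like subunit, at 114 [107, 121] against 91.1 [84.7, 97.4], both with WT higher and intervals apart. Of the subunits without proteolytic activity, PSMB1 was at -0.55, PSMB3 at -0.53, PSMB4 at -0.28 and PSMB2 at -0.19. The 14 expressed constitutive core genes summed to 2871 against 2159.8 FPKM, a ratio of 0.752, beside 0.759 for all expressed genes under 1500 bases, which most core genes are, and 0.869 for all expressed genes.

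Immunoproteasome subunits, which interferon substitutes for the proteolytic ones, were scarce. PSMB8 stood at 0.217 [0, 0.468] against 0.493 [0.168, 0.819] and PSMB9 at 1.05 [0.557, 1.55] against 1.07 [0.535, 1.60], with overlapping intervals. PSMB10 was the one well expressed, at 18.1 [16.0, 20.2] against 12.5 [10.6, 14.4], a log2 ratio of -0.53 with intervals apart. PSMB7 exceeded PSMB10, which replaces it, 6.31 [5.29, 7.59] times in WT and 7.27 [5.88, 9.17] times in PERK-KO cells, and PSMB6 exceeded PSMB9 164 [105, 328] and 120.0 [74.7, 256] times, with overlapping ranges in both pairs. PSMB11 of the thymus was listed at 0, as were 14 rows of PSMB8 and PSMB9 on alternate haplotypes. Of 9 antigen-processing genes, 8 were expressed, 5 lower with separate intervals (62.5%; background 18.7%) and 0 higher (background 26.1%), with a median of -0.36, or -0.33 less the running median over length. Lower beyond 1.5-fold (37.5%; background 7.54%) were the peptide transporter gene TAP1, which lies between PSMB8 and PSMB9, at 11.7 [10.7, 12.7] against 7.69 [6.83, 8.55], the peptide-loading gene TAPBP at 19.6 [18.4, 20.8] against 12.5 [11.5, 13.5], and the trimming peptidase gene ERAP2 at 9.83 [9.08, 10.6] against 5.56 [5.02, 6.11].

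**Figure D2:**
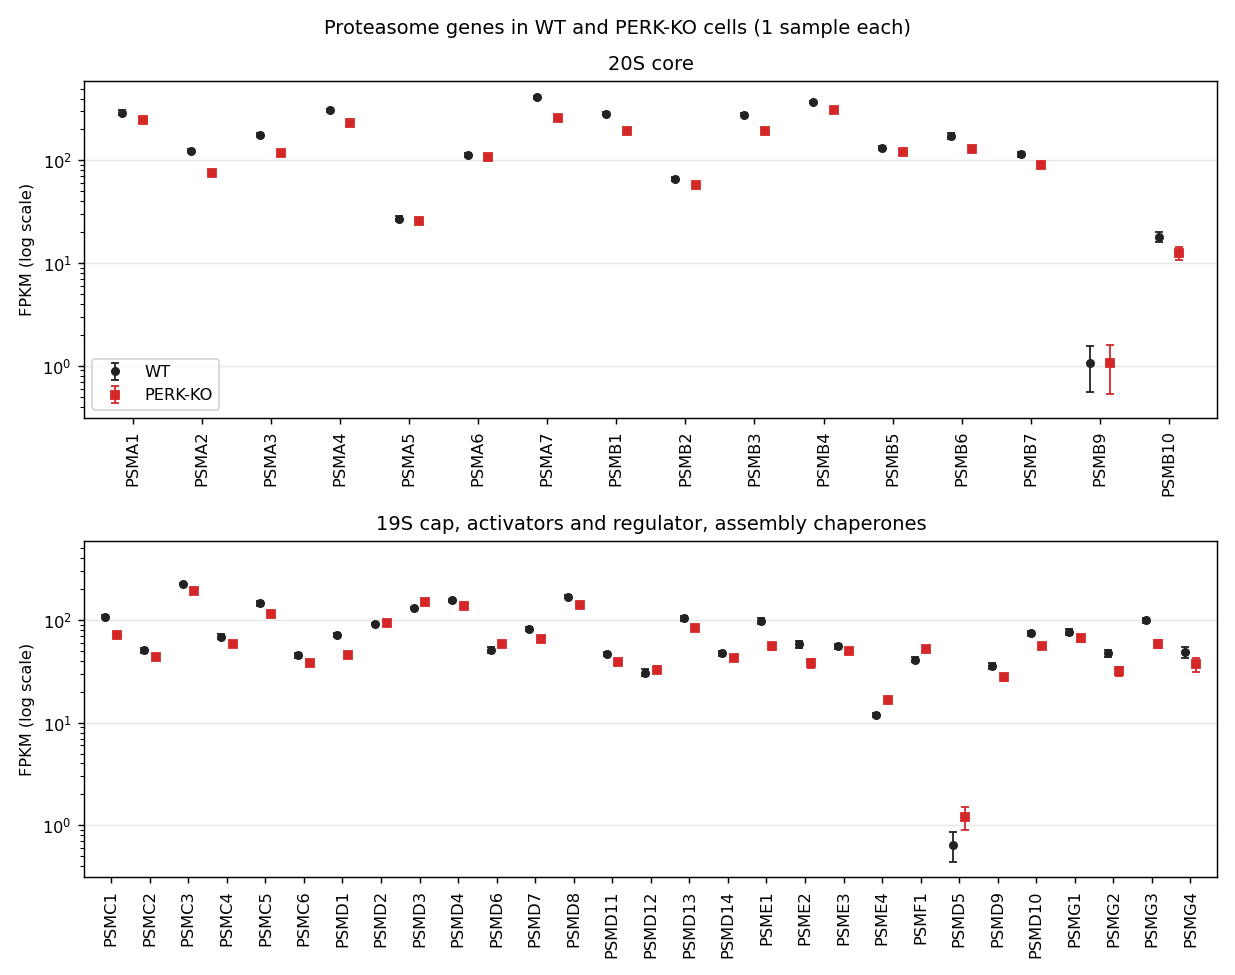
FPKM on a log scale of the 45 expressed proteasome genes in WT (black circles) and PERK-KO cells (red squares), 1 sample each, with the deposited confidence limits as bars. The upper panel holds the 20S core and the lower panel the other classes; PSMB9 and PSMD5 lie near 1 FPKM, below all others.

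The 19S cap had a median of -0.23, beside -0.37 in the core, whose transcripts are shorter. Among transcripts under 1500 bases the order was the same, with -0.19 over 3 cap genes and -0.43 over 13 core genes. Among transcripts of 1500 bases or more it was the other way, with -0.24 over 14 cap genes and -0.19 over 3 core genes. Of the 17 cap genes 12 were lower (70.6%, background 18.7%) and 1 higher (background 26.1%) with separate intervals. Their summed FPKM was 1619.9 against 1408. All 6 ATPases of the base, PSMC1 to PSMC6, were lower with separate intervals (background 18.7%), 5 of them between -0.33 and -0.21. PSMC1 was the lowest of these, at 108 [104, 112] against 72.0 [68.6, 75.5], a log2 ratio of -0.58 just short of 1.5-fold. GENCODE lists 13 pseudogenes of PSMC1, whose reads may be shared with it. PSMD1, a scaffold of the base on chromosome 2 (231921578 to 232037540), stood at 71.1 [68.1, 74.2] against 45.1 [42.8, 47.4], a log2 ratio of -0.66 and the lowest of the cap. The row of HTR2B within this locus stood at 0 against 0.0279. PSMD2, the other large scaffold, stood at 91.6 [89.0, 94.2] against 92.9 [90.1, 95.7], with overlapping intervals. The difference between the scaffolds was not tested. The ubiquitin receptor PSMD4 stood at 156 [151, 161] against 137 [131, 142], lower with intervals apart.

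The lid was mixed. PSMD7, PSMD8, PSMD11 and PSMD13 were lower with separate intervals, from -0.33 to -0.24. PSMD14, the deubiquitinase of the lid, stood at 47.3 [44.8, 49.8] against 42.6 [40.0, 45.1], with overlapping intervals. PSMD3, a structural subunit on chromosome 17 (38137021 to 38154213), was higher in PERK-KO cells at 131 [127, 134] against 151 [147, 155], a log2 ratio of 0.21 with intervals apart. The structural subunits PSMD6, at 51.5 [48.1, 54.8] against 58.1 [54.4, 61.8], and PSMD12, at 30.6 [28.3, 33.0] against 32.8 [30.2, 35.3], had overlapping intervals.

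The activators spread the widest apart from PSMD5. PSME1 and PSME2 form one joint cap, which interferon induces, and lie close together. PSME1, on chromosome 14 (24605378 to 24608176), stood at 98.0 [91.6, 104] against 55.2 [50.6, 59.7], and its log2 ratio of -0.83 was the lowest of all proteasome genes. PSME2, on chromosome 14 (24612574 to 24615855), stood at 58.0 [53.7, 62.3] against 37.7 [34.0, 41.4], a log2 ratio of -0.62, and has 6 pseudogenes in GENCODE. WT was higher in both, with intervals apart, and the ratio of PSME1 to PSME2 was 1.69 [1.47, 1.94] in WT and 1.46 [1.22, 1.76] in PERK-KO cells. Both transcripts are short, of 965 and 793 bases. Less the running median over length, PSME1 was at -0.53 and PSME2 at -0.24, both within 1.5-fold. The PSME1 locus overlaps EMC9, at 23.2 against 19.2, and whether counting used strand is not given in the sources used here. PSME3, the nuclear activator, stood at 55.6 [52.6, 58.5] against 50.2 [47.6, 52.8], with overlapping intervals. PSME4, the gene of the large activator PA200, was higher at 11.8 [11.3, 12.4] against 16.6 [15.8, 17.3], a log2 ratio of 0.48, and so was PSMF1, the gene of a core inhibitor, at 41.1 [38.9, 43.4] against 51.8 [49.0, 54.7], a log2 ratio of 0.33. Their transcripts are long, of 7250 and 8154 bases, and genes of such lengths had medians of 0.28 and 0.33. Less these medians, PSME4 was at 0.20 and PSMF1 at 0.01, or at 0.22 with the shorter transcript nearest to its deposited locus.

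All 4 chaperones of core assembly were lower with separate intervals, where the background was 18.7%, or 44.2% among expressed genes under 1500 bases. PSMG3, on chromosome 7 (1606970 to 1609668), stood at 99.3 [93.1, 106] against 58.5 [53.9, 63.2], a log2 ratio of -0.76, second only to PSME1. Its partner PSMG4 stood at 48.5 [42.4, 54.6] against 36.8 [31.4, 42.3], with intervals that barely parted. The other pair comprised PSMG2 at 47.2 [43.6, 50.9] against 31.7 [28.7, 34.7], a log2 ratio of -0.57, and PSMG1 at 76.4 [71.7, 81.1] against 66.0 [61.5, 70.5], a log2 ratio of -0.21. Among chaperones of the 19S base, PSMD9 and PSMD10 were lower with separate intervals, at -0.38 and -0.42. PSMD5 was higher, at 0.650 [0.439, 0.861] against 1.21 [0.903, 1.51], but its level is low and its limits allow log2 ratios from 0.07 to 1.78.

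The log2 ratio was larger for longer transcripts, in the proteasome genes and in the whole table. Spearman's rho was 0.47 across 45 proteasome genes and 0.45 across 13826 expressed genes, a description across genes measured in the same pair of libraries. Median lengths were 1000.5 bases in the core, 1470 in the chaperones and 1754 in the cap. The median log2 ratio of all genes under 1500 bases was -0.28, and of longer ones 0.09. With the running median of genes near in length subtracted, 33 of the 45 proteasome genes lay below 0, as did 6900 of the 13826. Their median was then -0.13, with -0.16 in the core, -0.10 in the cap, -0.22 in the activators and regulator and -0.24 in the chaperones. Within the core it was -0.27 in the alpha ring and -0.05 in the constitutive beta ring. Beyond 1.5-fold were then PSMD1 (-0.73) and PSMC1 (-0.73) below (background 5.2%) and PSMD5 (0.83) above (background 6.54%). PSMG3 (-0.57), PSMA4 (-0.55), PSME1 (-0.53) and PSMA2 (-0.53) followed. For PSMC1 and PSMA4 the canonical transcript is much longer than the one nearest to the deposited locus, and with the latter the values were -0.41 and -0.12. By that length PSMD1 (-0.73) and PSMG3 (-0.61) were beyond 1.5-fold below (background 5.06%), and the medians were -0.15 in the core and -0.12 in the cap.

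By position, 7 expressed genes on chromosome 14, PSME1, PSME2, PSMA3, PSMA6, PSMB5, PSMC1 and PSMC6, had a median of -0.56, and all 438 expressed genes there had 0.07. Their transcripts are short (median 1023 bases), and less the running median over length their median was -0.24. PSMA2, PSMC2 and PSMG3 on chromosome 7 had a median of -0.72, the lowest of any chromosome with proteasome genes, and its 734 genes -0.04. Less the running median over length, PSMA2, PSMC2 and PSMG3 were at -0.53, -0.24 and -0.57. The 7 on chromosome 17 had -0.24, and its 885 genes -0.04. The 4 on chromosome 1 had -0.19, and its 1449 genes 0.20. Medians were positive on chromosome 3 (PSMD2 and PSMD6, 0.10) and chromosome 9 (PSMB7 and PSMD5, 0.28). The remaining chromosomes with proteasome genes had medians from -0.57 to -0.15.

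The 27 other genes examined of the ubiquitin-proteasome pathway had 5 lower members with separate intervals, or 18.5% where the background was 18.7%, and 12 higher ones where the background was 26.1%. Their median log2 ratio was 0.09, or -0.01 less the running median of genes near in length, and their transcripts had a median length of 3746 bases. Their summed FPKM, most of it from UBB and RPS27A, was 5016 against 3859, a ratio of 0.769. Beyond 1.5-fold, 2 of the 27 were lower (7.41%, background 7.54%) and 4 were higher (background 10.1%). With the running median over length subtracted, 0 were lower (background 5.2%) and 2, DDI2 and SYVN1, were higher (background 6.54%). Among parts and assembly factors with other symbols, 3 of 9 were lower and 3 higher with separate intervals. POMP, which matures the core, stood at 84.5 [80.9, 88.2] against 56.4 [53.2, 59.6], SHFM1, the smallest lid subunit, at 386 [369.8, 402] against 242 [228, 255], and the ubiquitin receptor ADRM1 at 113 [107, 119] against 99.8 [94.2, 105], all lower with intervals apart and SHFM1 beyond 1.5-fold. UCHL5, a deubiquitinase that ADRM1 recruits, was higher beyond 1.5-fold at 17.7 [16.2, 19.3] against 28.0 [25.8, 30.2]. Its locus overlaps TROVE2, at 9.51 against 13.3. The ligase UBE3C stood at 22.0 [21.1, 23.0] against 33.0 [31.8, 34.3] and the adaptor KIAA0368 at 24.0 [23.2, 24.9] against 33.6 [32.6, 34.6], both higher with intervals apart. Less the running median over length, POMP was at -0.37, SHFM1 at -0.25 and ADRM1 at 0.02. UCHL5 was then at 0.48, UBE3C at 0.41 and KIAA0368 at 0.20.

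Of 9 genes of proteasome transcription and its activation, 5 were higher and 0 lower with separate intervals (background 26.1% and 18.7%). Their median of 0.19 became -0.01 less the running median over length. NFE2L1, an ER-anchored factor that drives proteasome genes, stood at 46.4 [45.0, 47.8] against 52.8 [51.2, 54.4], a log2 ratio of 0.19 that lay -0.01 from the median of genes near in length. NFE2L2 stood at 16.6 [15.3, 17.8] against 15.3 [14.1, 16.6], with overlapping intervals. DDI2, the protease that cleaves NFE2L1, stood at 1.82 [1.40, 2.25] against 6.45 [5.58, 7.32], 3.54-fold higher, and SYVN1, a ligase of ER-associated degradation, at 26.4 [24.7, 28.1] against 73.5 [70.3, 76.7], 2.78-fold higher. The DDI2 locus overlaps RSC1A1, at 3.53 against 8.22, and the SYVN1 locus overlaps MRPL49, at 55.6 against 72.0. How reads were divided between overlapping rows was not tested. NGLY1, which removes glycans from NFE2L1, stood at 12.1 [11.0, 13.3] against 16.0 [14.6, 17.4], and VCP, which extracts proteins from the ER, at 93.1 [90.9, 95.4] against 111 [109, 114], both higher with intervals apart. Cleavage and localisation of NFE2L1 were not measured.

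**Figure D3:**
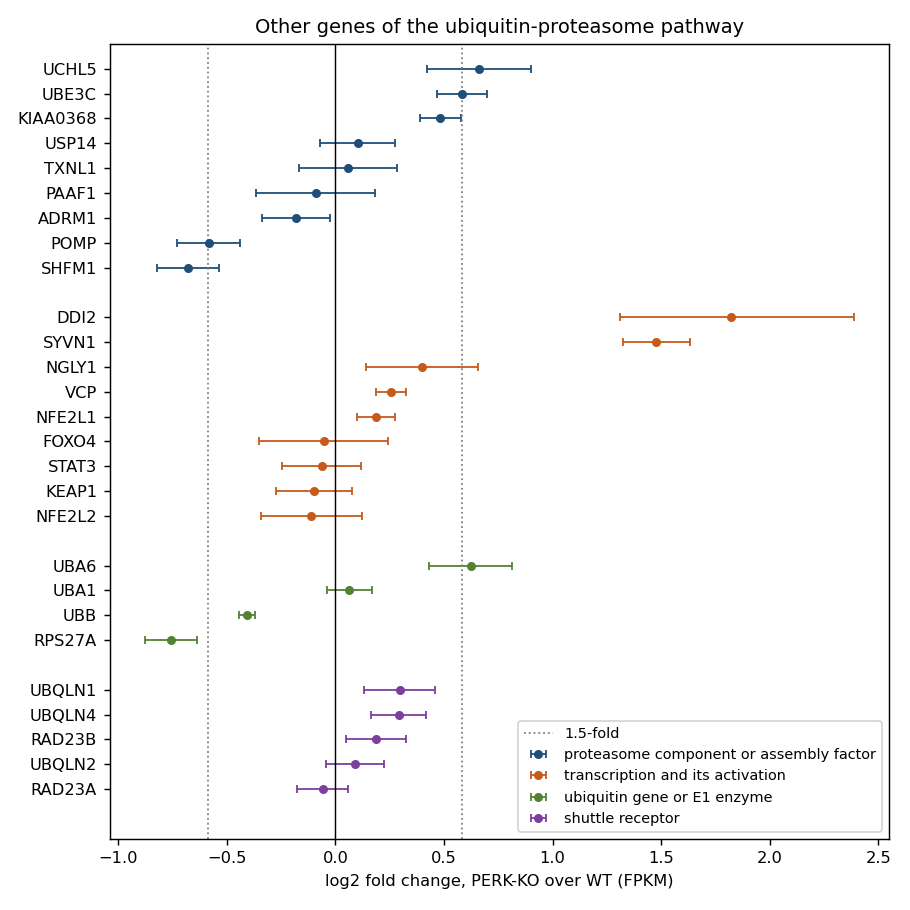
Log2 ratio of FPKM, PERK-KO over WT, for 27 other genes of the pathway in 4 groups, 1 sample per genotype, with bars over the ratios that the deposited limits allow and dotted lines at 1.5-fold. DDI2 (1.82) and SYVN1 (1.48) lie farthest right, RPS27A (-0.76) and SHFM1 (-0.68) farthest left.

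Among the ubiquitin genes listed, UBB encodes a chain of ubiquitin and RPS27A encodes ubiquitin fused to a ribosomal protein. Both were lower with separate intervals, RPS27A at 1602 [1537, 1668] against 949 [909, 989], beyond 1.5-fold, and UBB at 1879 [1857, 1902] against 1418 [1398, 1439]. With the running median over length subtracted, RPS27A was at -0.37, within 1.5-fold, and UBB at -0.07. The RPS27A locus overlaps CLHC1 and MIR4426, whose rows reached at most 172 in WT and 11.6 in PERK-KO cells. Of the E1 enzymes, which charge ubiquitin, UBA6 was higher beyond 1.5-fold at 6.38 [5.92, 6.83] against 9.81 [9.21, 10.4], and UBA1 stood at 233 [225, 241] against 243 [234, 252], with overlapping intervals. With the running median over length subtracted, UBA6 was at 0.30, within 1.5-fold. Of 5 shuttle receptors, which bring tagged proteins to the cap, RAD23B (0.19), UBQLN1 (0.30) and UBQLN4 (0.29) were higher with separate intervals and 0 were lower (background 26.1% and 18.7%). Less the running median over length, the 3 values were 0.06, 0.17 and 0.22.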

How the data were processed

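Poly(A) mRNA libraries of WT and PERK-KO HEK293 cells, 1 each, were sequenced by the authors. The submitters' processing notes name TopHat2 2.0.13, Cufflinks 2.2.1 and the build hg19 (GRCh37). The authors deposited FPKM per gene with confidence limits, in files named for RPKM. The annotation and the read depth are not given in the sources used here, so precision rests on the deposited limits.

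Log2 ratios were computed for the 14594 main-chromosome genes that reached 1 FPKM in either sample, with Python 3.11.15, numpy 2.4.6, scipy 1.17.1 and pandas 2.3.3, by scripts checked on simulated data. A gene was called beyond 1.5-fold, and 1 sample per genotype allowed no test. Canonical transcript lengths came from GENCODE 44 on GRCh37 and covered 94.8% of these genes and all 49 proteasome rows. Promoters came from RefSeq on GRCh38.p14.

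The rule named, with values, members beyond 1.5-fold, the lowest and highest 2 of each class, the proteolytic subunits, PSMD4, PSMD14, members under 1 FPKM, and NFE2L1, NFE2L2, POMP, ADRM1, EIF2AK3 and pathway genes beyond 1.5-fold. The other genes given with values were picked after their values were seen. Some genes of the pathway list are not reported here. The members and lists were chosen with earlier results of these data known. Alternatives were other FPKM floors, pseudocounts, fold limits, rescaling, summed rows, separate intervals and a correction for transcript length.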

Additional observations from a re-analysis of the deposited data

How the results depend on the processing

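No paired analysis was possible because each genotype has 1 sample, and for the same reason no replicate could be left out. The number of proteasome genes lower beyond 1.5-fold, 6, became 10 after rescaling to a median of 0, 2 with the running median over transcript length subtracted, 0 at a limit of 2-fold and 20 at a log2 limit of 0.32. The number higher, 1, became 2 with any FPKM above 0 in both samples, 0 with a floor of 5 FPKM, with a pseudocount of 1 and at 2-fold, and 3 at a log2 limit of 0.32. The share of all expressed genes lower, 7.54%, was 8.76% after rescaling and 5.2% with the length correction. It was 2.08% at 2-fold and 18.4% at a log2 limit of 0.32. The share higher, 10.1%, was 3.28% and 24.3% at these limits, 6.47% with a pseudocount of 1 and 6.54% with the length correction. It was 13.7% with any FPKM above 0 in both samples and 8.42% with a floor of 5 FPKM. The median of the 20S core was -0.16 with the length correction. The following alternatives were chosen after seeing the data. With a floor of 10 FPKM, 0 proteasome genes were higher, against 7.51% of all genes. With a narrower running median, 2 were lower, against 5.3% of all genes, 6.48% of all genes were higher and the core median was -0.17. With the length of the transcript nearest to the deposited locus, 2 were lower, PSMD1 and PSMG3 in place of PSMD1 and PSMC1. The share of all genes lower was then 5.06%, and the core median was -0.15. Among genes whose loci overlap no other gene, 4 were lower and the median of the activators and regulator reversed to 0.094. This leaves out PSME1 and also PSMD1, which overlaps only the near-silent row of HTR2B. The medians of the core, cap and chaperones were negative under each alternative that gave one. Among 81 single genes of the lists, 40 moved by more than their counting error with the length correction and 1 with rescaling, and no gene beyond 1.5-fold changed direction under the alternatives run for single genes. Counting error limits PSMB8, PSMB9 and PSMD5 most.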

Other observations

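Both antisense rows left out of the gene set were low, with overlapping intervals. PSMG3-AS1 stood at 1.18 [0.936, 1.42] against 0.764 [0.560, 0.969] FPKM, WT against PERK-KO with confidence limits in brackets, and PSMD6-AS2 at 0.106 [0.0111, 0.200] against 0.265 [0.105, 0.425]. PSMC3IP, matched by name alone, stood at 35.3 [32.7, 37.9] against 29.3 [26.9, 31.8], a log2 ratio of -0.27, and its locus overlaps MLX.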
